A study of Mus musculus with 4 samples.

Results

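The Mediator complex subunits are the proteins that bridge transcription factors bound at enhancers and RNA polymerase II at promoters. The set was drawn by name: every listed gene called Med with a number, with or without a closing l, plus Cdk8, Cdk19 and Ccnc. It held 33 of the 20207 genes listed, and Cdk19 was found under its older symbol Cdc2l6. By module, 7 belonged to the head, 9 to the middle, 9 to the tail and 7 to the kinase module, and Med14 was kept apart as the scaffold. Sources place Med27 to Med30 in either head or tail, and they were counted with the tail. The set was proposed because its members Med20 and Med11 had come up on opposite sides of the comparison between genotypes. That comparison is therefore given here as a description of the members.

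RNA was sequenced from adipocyte precursor cells, the progenitors of fat cells, sorted as Sca1+ CD45- CD31- from adipose tissue of young C57BL/6 mice. There were 2 libraries labelled Per3 KO, a knockout of a clock gene of the period family, and 2 libraries of wild-type (WT) littermates. Samples of both groups were taken at zeitgeber time 2, shortly after lights on. The labels name no fat depot, no allele and no number of mice per library. P-values therefore describe how these samples vary, and that variation may be technical. In bulk RNA, fewer cells of a type and less RNA per cell cannot be told apart.

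Total gene reads were 40002999 and 64964300 in Per3 KO 1 and 2, and 37101112 and 27950724 in WT 1 and 2. Per3 itself had 193 and 768 reads in the Per3 KO libraries against 121 and 170 in the WT libraries, so the labelled knockout was not visible as fewer reads over the whole gene. Which part of Per3 was altered is not stated, and "Per3 KO" below means the libraries so labelled. Ly6a, which encodes Sca1, had 156000 and 155400 reads in Per3 KO and 99540 and 332000 in WT. The CD45 gene Ptprc had 4 and 50 reads in Per3 KO and 0 and 5 in WT, and the CD31 gene Pecam1 had 279 and 378 in Per3 KO and 79 and 206 in WT. The 11 precursor markers summed to 72700 and 64800 CPM in Per3 KO and 75400 and 111000 CPM in WT. CPM means read counts over the library total after that total was multiplied by a factor for each library (TMM). Summed CPM therefore differ between libraries. Over all genes tested they were 966000 and 891000 in Per3 KO and 968000 and 1200000 in WT. WT 2 had the lowest factor, 0.832, which raises its CPM. In WT 2 the sum was led by Col1a1 (44900 CPM), Col3a1 (35900) and Ly6a (14300), each highest in that library. Thy1 and Pdgfrb were also highest in WT 2. By contrast, Cd34 (853 CPM), Pi16 (798), Dpp4 (295) and Cd44 (185) were lowest in WT 2, while Pdgfra and Dcn lay between. Among markers of other cells, the 5 skeletal muscle genes summed to 19.8 and 20.0 CPM in Per3 KO and 52.8 and 85.6 CPM in WT, and none was at 0. The sum in WT 2 was led by Tnnc2, with 4.47 and 5.46 CPM in Per3 KO and 19.3 and 64.4 CPM in WT. Tnni2 and, by a small step, Mylpf were also higher in both WT libraries. Acta1 and Ckm were highest in WT 1 (19.8 and 8.95 CPM) but lowest in WT 2 (6.66 and 1.89 CPM). The 8 leukocyte genes summed to 30.0 and 14.3 CPM in Per3 KO and 10.3 and 43.3 CPM in WT, with 3 of them at 0 reads in each Per3 KO library, 2 in WT 1 and 1 in WT 2. The 6 endothelial genes summed to 8.23 and 7.22 CPM in Per3 KO and 2.48 and 11.8 CPM in WT, with Tie1 at 0 throughout, and the 5 mural genes to 26.5 and 19.9 CPM in Per3 KO and 14.8 and 17.4 CPM in WT. The 5 epithelial genes summed to 1.40 and 6.23 CPM in Per3 KO and 1.20 and 0.473 CPM in WT, and the 4 mature adipocyte genes to 3.21 and 4.46 CPM in Per3 KO and 7.54 and 10.7 CPM in WT, with Lep at 0 throughout. The part of such cells in the results below was not tested.

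Mediator is built of a head and a middle that touch polymerase and the basal factors, a tail that is met by many activators, and a scaffold subunit that runs through all of them. A separable kinase module, made of CDK8 or CDK19 with cyclin C, MED12 and MED13, docks on this core and keeps it from polymerase while bound. In fat cell formation the complex is known mainly through MED1 and MED14, which bind the adipogenic nuclear receptor PPARγ, and MED23, which acts downstream of insulin signalling.

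All 33 members had reads in all 4 libraries. Levels between genes are given as RPKM, reads scaled by transcript length and library total. By mean RPKM over the 4 libraries, 5 members were at 10 or above, 21 lay from 1 to under 10, and 7 were under 1. The order was led by Med10, a small middle subunit, at 39.4, and Med21, which forms a hinge with Med7 in the middle module, at 35.2. Med27 (12.4), Med4 (11.5) and Med6 (10.5) followed. These 5 stood between the percentiles 87.3 and 95.0 of all listed genes. At the other end were Med12l at 0.156, Med25 at 0.200, Med9 at 0.584, Med14 at 0.630, Med18 at 0.657, Cdk19 at 0.660 and Med23 at 0.674.

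For the leading pair the spread over libraries was larger than the step in level. Med10 had 39.47 and 25.90 RPKM in Per3 KO and 39.57 and 52.83 RPKM in WT. Med21 had 33.07 and 26.16 RPKM in Per3 KO and 19.68 and 61.76 RPKM in WT. Their ranges overlapped, so which of them led depended on the library. Together they made up 36.4% and 30.9% of the summed Mediator RPKM in Per3 KO, against 32.7% and 51.0% in WT. The highest share was that of WT 2.

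**Figure D1:**
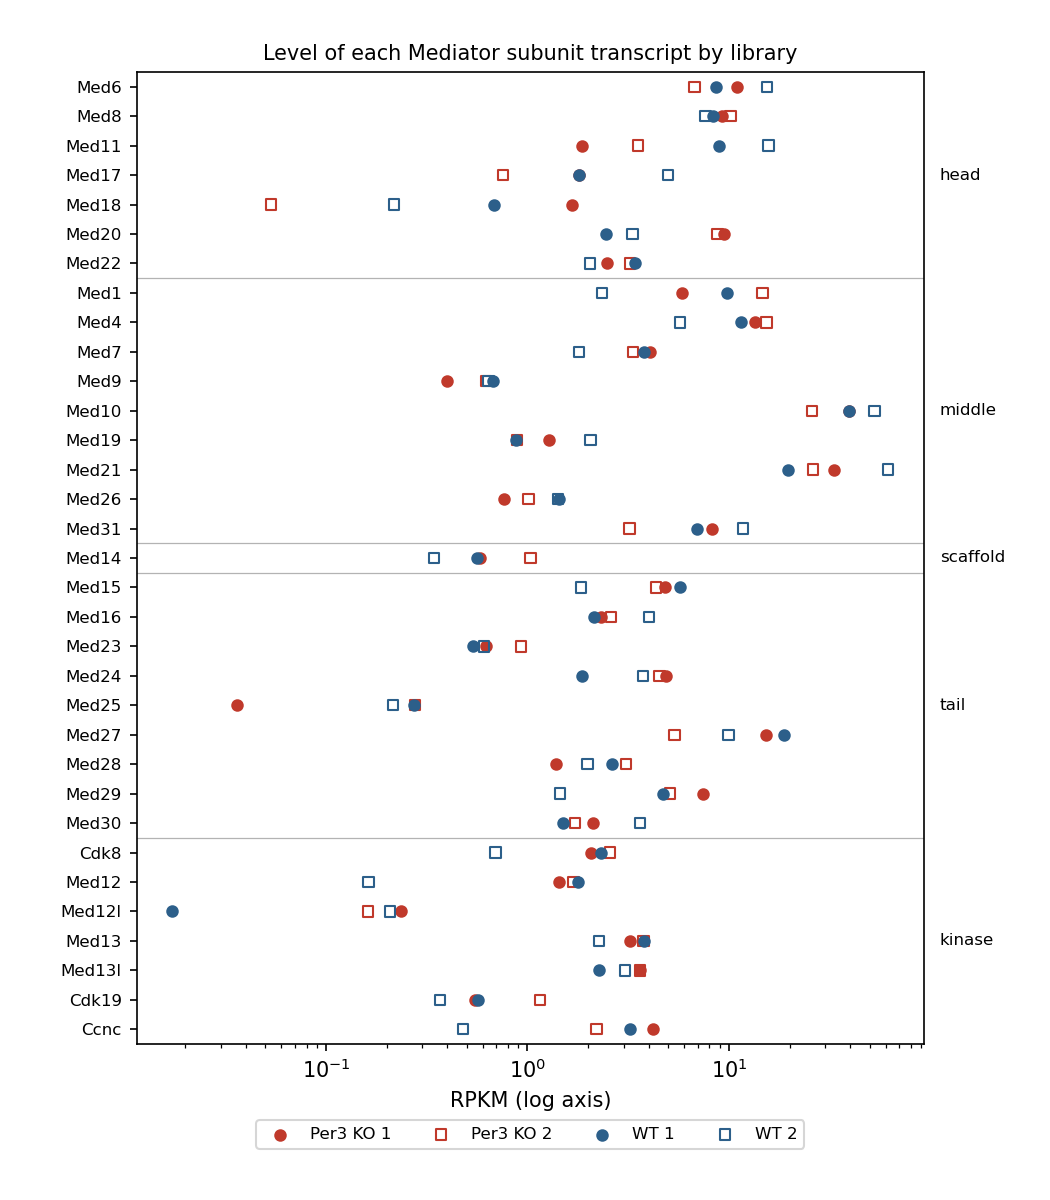
Level of each Mediator subunit in RPKM on a log axis, grouped by module. Filled and open red symbols are Per3 KO 1 and 2, filled and open blue symbols are WT 1 and 2. Med10 and Med21 lie farthest right, and the open blue squares of WT 2 often stand apart from the other 3 libraries.

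The summed RPKM of all members was 199 and 169 in Per3 KO and 181 and 225 in WT. The middle module contributed most, at 107 and 91.2 RPKM in Per3 KO and 94.4 and 140 RPKM in WT. The head had 37.6 and 33.3 RPKM in Per3 KO and 34.3 and 49.4 RPKM in WT. The groups overlapped for the total, the middle and the head. For the tail the sums were 38.9 and 28.0 RPKM in Per3 KO and 38.2 and 27.4 RPKM in WT. The kinase module stood at 15.3 and 15.2 RPKM in Per3 KO and 14.0 and 7.23 RPKM in WT. Both Per3 KO sums of the kinase module were thus above WT, by a narrow step over WT 1 and a wide one over WT 2.

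No member passed the test between the genotypes that was run across all genes. Of 12494 genes tested with edgeR's quasi-likelihood test and Benjamini-Hochberg adjustment, 0 had an adjusted p under 0.05 (0%), and 0 of the 33 members did. Without adjustment, 257 genes (2.06%) and 2 members, Med11 and Med20, were under 0.05. The set was proposed because of these 2 members, so their number cannot be weighed against the share of all genes. DESeq2 called 14 genes (0.112%) and limma on log2(RPKM + 0.5) called 1 (0.0121%), with 0 members in either. The smallest adjusted p of any member in any alternative was 0.101, for Med11. All 33 members passed the filter on low counts for edgeR and DESeq2, while the RPKM minimum of 1 (mean over libraries) used with limma left 26 members among 8290 genes.

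The members were balanced in direction. A positive log2 fold change (Per3 KO over WT) was found in 16 members and a negative one in 17, with a median of -0.0034, against 0.01 over all genes tested. Both Per3 KO libraries lay above both WT libraries for 4 members, where the share of all genes was 14.6%. Both lay below for 6 members, where the share was 11.5%. The 10 members apart in either direction were 30.3% of the set, next to 26.0% of all genes. These positions are in CPM. In RPKM 5 members changed position, since Med8, Med13l, Med23 and Med24 then had both Per3 KO libraries above WT and Med25 overlapped. That gave 8 members above and 5 below in RPKM, where the shares of all genes were 21.2% and 6.64%. With WT 1 left out, 12 members were above and 16 below in CPM, next to 40.8% and 36% of all genes. Leaving out WT 2 gave 12 above and 11 below, next to 32.1% and 31.5% of all genes. Leaving out Per3 KO 1 gave 9 above and 11 below, next to 31.9% and 27.4%, and leaving out Per3 KO 2 gave 7 above and 8 below, next to 26.7% and 24.1%.

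By module the medians differed in sign, but for the head, tail and kinase module the sign turned when WT 2 was left out. The middle module stayed negative with any 1 library left out, though only at -0.07 without WT 2. The median log2 fold change was -0.18 for the head, -0.81 for the middle, -0.32 for the tail and 0.45 for the kinase module. With Med27 to Med30 counted in the head, the head was at -0.32 and the tail at 0.11, and with limma on log2(RPKM + 0.5) the middle was at -0.25. Without WT 2 the medians were 0.01, -0.07, 0.17 and -0.02 in the same order. Without WT 1 they were -0.17, -1.19, -0.35 and 0.68. Without Per3 KO 1 they were -1.27, -0.85, -0.02 and 0.11, and without Per3 KO 2 they were -0.34, -0.52, -0.15 and 0.32. WT 2 was the highest or lowest library for 27 of 33 members (81.8%), next to 66.3% of all genes. Each of the other 3 libraries was at an extreme for 11 to 14 members. The median absolute log2 difference between the libraries of a group was 0.55 in the Per3 KO pair and 1.09 in the WT pair, close to 0.60 and 1.00 over all genes tested.

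**Figure D2:**
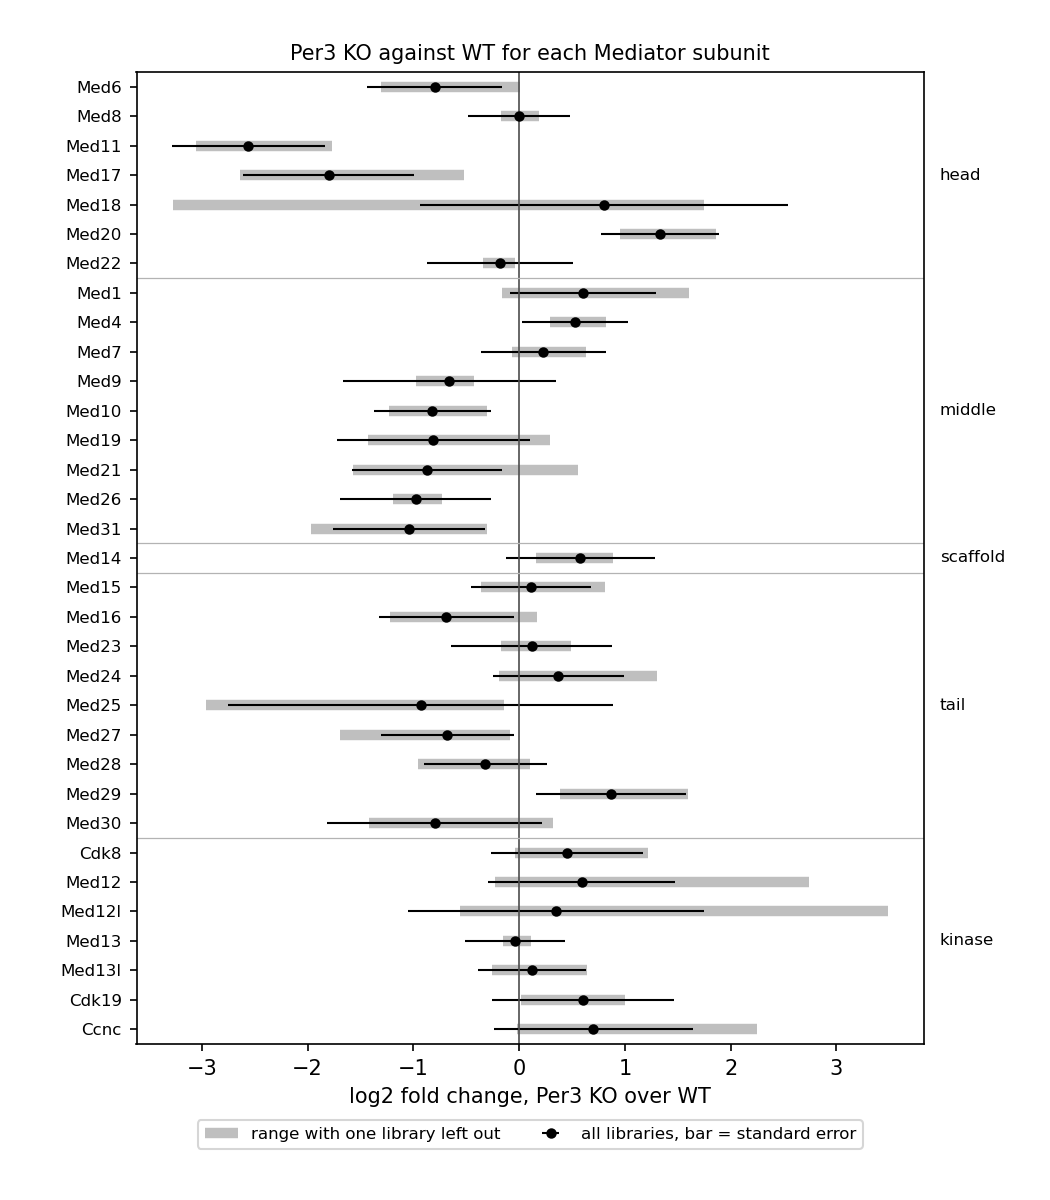
Log2 fold change of each member, Per3 KO over WT, by module. Points are the values from all 4 libraries with their standard errors, and grey bars span the values with 1 library left out. Med11 and Med20 are the farthest points on the left and right, and 19 grey bars cross 0.

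In the head module, Med20 and Med11 had the largest log2 fold changes of opposite sign. Med20, which pairs with Med18 in a mobile part of the head (mm9 chromosome 17, 47748545 to 47761367), had 1419 and 2197 reads in Per3 KO and 341 and 389 in WT. Scaled between libraries this was 34.3 and 30.1 CPM in Per3 KO and 8.90 and 16.7 CPM in WT, or 32.2 ± 2.91 CPM in Per3 KO and 12.8 ± 5.53 CPM in WT (SD, n = 2 each). Both Per3 KO libraries were high and close to each other, and the WT libraries did not reach them. The log2 fold change was 1.33 ± 0.56 (SE, edgeR adjusted p = 1.00), and it stayed between 0.95 and 1.86 with any 1 library left out.

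Med11, which pairs with Med22 in the head and is known in yeast to contact the basal factor TFIIH (mm9 chromosome 11, 70265433 to 70267228), went the other way. It had 122 and 385 reads in Per3 KO and 541 and 802 in WT, which was 2.95 and 5.28 CPM in Per3 KO and 14.1 and 34.5 CPM in WT. The groups did not overlap, and WT 2 was the highest. The means were 4.11 ± 1.65 CPM in Per3 KO and 24.3 ± 14.4 CPM in WT (SD, n = 2 each), with a log2 fold change of -2.56 ± 0.72 (SE, edgeR adjusted p = 1.00). It ranged from -3.06 without WT 1 to -1.77 without WT 2. The ratio of Med20 to Med11 in RPKM was 5.07 and 2.49 in Per3 KO and 0.275 and 0.211 in WT, a ratio formed after the values were seen.

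The partners of these subunits did not show the same separation. Med18, the partner of Med20, had 206 and 10.92 reads in Per3 KO and 78 and 21 in WT, or 4.97 and 0.151 CPM in Per3 KO and 2.04 and 0.903 CPM in WT. Per3 KO 1 was the highest library and Per3 KO 2 the lowest, so the groups overlapped. The log2 fold change was 0.80 ± 1.74 (SE), and -3.27 without Per3 KO 1. Med22, the partner of Med11, had 6.01 and 7.42 CPM in Per3 KO and 8.27 and 6.92 CPM in WT, and a log2 fold change of -0.18 ± 0.69 (SE). Med8, which anchors the Med18 and Med20 pair, was the steadiest head subunit in CPM, at 30.4 and 31.6 in Per3 KO and 27.3 and 34.9 in WT. In RPKM its groups were apart, at 9.288 and 10.18 in Per3 KO and 8.337 and 7.652 in WT. Med18, Med8 and Med22 here, and Med6, Med1, Med21, Med23 and Med15 below, are given by library although the naming rule did not call for it, a choice made after their values were seen.

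Med17, the large head subunit that touches polymerase, had 12.4 and 4.97 CPM in Per3 KO and 12.5 and 48.1 CPM in WT. The groups were apart only by the small step between Per3 KO 1 and WT 1. On the log2 scale the fold change was -1.80 ± 0.81 (SE), and without WT 2 it was -0.52. Med6, a conserved head subunit, overlapped between groups, with 19.6 and 11.4 CPM in Per3 KO and 15.4 and 38.4 CPM in WT. Its log2 fold change of -0.80 turned to 0.01 without WT 2.

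Promoters are shown for the members at the ends of the comparison, Med20 and Med11, and for Med17, the one member with groups apart whose promoter held an E-box, the site of clock proteins and Myc. The sequences are RefSeq promoters of build GRCm38.p6, from 250 bases before the gene start to 50 after it, and coordinates refer to that build. Capitals mark matches, on either strand, to the E-box (letters CACGTG), the box written CCAAT, the GC box (letters GGGCGG), the ETS core (letters CCGGAAG), the TATA motif (letters TATAAA) and the D-box (letters TTATGTAA).
Med20, chr17:47611335-47611634, plus strand: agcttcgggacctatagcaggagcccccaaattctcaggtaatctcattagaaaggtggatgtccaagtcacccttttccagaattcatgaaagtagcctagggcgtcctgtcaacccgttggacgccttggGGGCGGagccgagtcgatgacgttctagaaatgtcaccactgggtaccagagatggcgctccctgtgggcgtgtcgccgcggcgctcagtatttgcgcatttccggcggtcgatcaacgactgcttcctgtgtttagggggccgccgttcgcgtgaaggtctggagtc
Med11, chr11:70451668-70451967, plus strand: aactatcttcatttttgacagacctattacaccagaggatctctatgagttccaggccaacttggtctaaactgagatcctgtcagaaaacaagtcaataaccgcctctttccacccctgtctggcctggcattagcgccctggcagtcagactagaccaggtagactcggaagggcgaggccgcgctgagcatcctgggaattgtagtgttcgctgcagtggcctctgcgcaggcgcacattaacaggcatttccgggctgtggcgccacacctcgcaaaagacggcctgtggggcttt
Med17, chr9:15279857-15280156, minus strand: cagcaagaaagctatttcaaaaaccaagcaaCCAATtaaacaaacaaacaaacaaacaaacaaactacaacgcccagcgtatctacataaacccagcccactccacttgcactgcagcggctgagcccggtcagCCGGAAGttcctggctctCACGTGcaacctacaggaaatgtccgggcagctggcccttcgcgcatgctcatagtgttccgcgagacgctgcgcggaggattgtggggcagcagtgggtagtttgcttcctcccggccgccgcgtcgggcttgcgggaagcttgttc
In these windows Med20 held a GC box, Med11 none of the 6 motifs, and Med17 a CCAAT, an ETS core and an E-box. No motif overlapped another in them.

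RefSeq promoters were matched for 28 of the 33 members. The E-box was present in 4 of them, Cdk8, Med17, Med28 and Med31 (14.3%), and in 8.09% of 27025 genes with a promoter. The ETS core was in 8 members (28.6%) and 9.93% of all genes, and the GC box in 19 (67.9%) and 38.2%. CCAAT was in 39.3% of members and 41.1% of all genes, and TATAAA in 10.7% and 15.7%. The D-box was in 0 members and in 1.11% of all genes. Member promoters had a median of 22 CpG dinucleotides, against 7 over all genes. The 27025 genes were taken whether or not they had reads here, while every member had reads. A comparison with expressed genes alone was not made. These are counts of letters in a fixed window and do not show binding.

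Among the middle subunits, 4 had groups apart. Med4, which forms a pair with Med9, had 31.3 and 33.7 CPM in Per3 KO and 26.7 and 18.4 CPM in WT. Both Per3 KO libraries were above WT, by less than the step between the WT libraries at the nearest pair. Its log2 fold change was 0.53 ± 0.50 (SE), and it stayed positive with any 1 library left out (0.29 to 0.82).

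Med26, which recruits elongation factors to Mediator, had 4.08 and 5.10 CPM in Per3 KO and 7.65 and 10.5 CPM in WT. Both Per3 KO libraries were lower than both WT libraries, and the log2 fold change of -0.98 ± 0.71 (SE) ranged from -1.19 to -0.73 with 1 library left out. Med9 had 2.12 and 3.16 CPM in Per3 KO and 3.60 and 4.77 CPM in WT, with a log2 fold change of -0.66 ± 1.01 (SE). The groups did not overlap, but the standard error exceeded the difference. Med10 had 60.4 and 37.5 CPM in Per3 KO and 60.5 and 112 CPM in WT. Per3 KO 1 and WT 1 were nearly equal, and the log2 fold change was -0.82 ± 0.55 (SE), or -0.30 without WT 2.

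The other 5 middle subunits overlapped between groups. Med1, which binds nuclear receptors including PPARγ, had 29.4 and 69.6 CPM in Per3 KO and 49.1 and 16.3 CPM in WT. Each group held a high and a low library, and the log2 fold change of 0.60 ± 0.69 (SE) turned to -0.16 without Per3 KO 2. Med21 had 45.8 and 34.3 CPM in Per3 KO and 27.2 and 119 CPM in WT. Its log2 fold change of -0.87 turned to 0.56 without WT 2. Med31 (-1.04), Med19 (-0.81, or 0.29 without WT 2) and Med7 (0.23, or -0.07 without WT 2) completed the module.

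Med14, the scaffold and a partner of PPARγ, had 7.08 and 11.9 CPM in Per3 KO and 6.86 and 5.80 CPM in WT. Per3 KO 2 was the high library, while Per3 KO 1 was close to WT 1. This gave a log2 fold change of 0.58 ± 0.70 (SE), or 0.16 without Per3 KO 2.

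**Figure D3:**
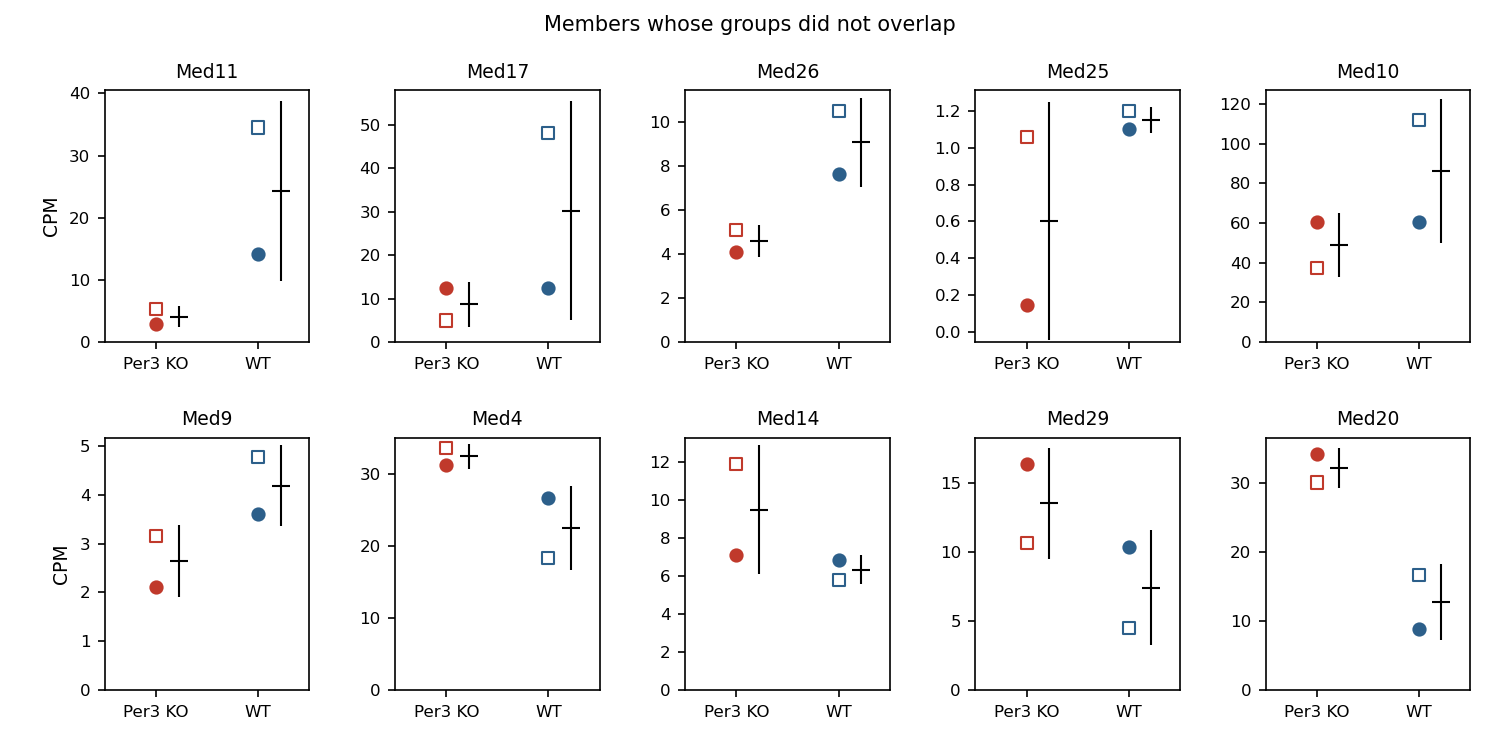
CPM of the 10 members whose groups did not overlap, each panel with its own axis, Per3 KO in red on the left and WT in blue on the right. Filled symbols are library 1 and open symbols library 2, and black bars give the mean and SD (n = 2). Med11, Med26 and Med20 show clear gaps, while Med17, Med10, Med14, Med29 and Med25 are parted by a narrow step. Med4 and Med9 lie between these, and the groups of Med25 overlap in RPKM.

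In the tail, Med29 and Med25 had groups apart in CPM. Med29 had 16.4 and 10.7 CPM in Per3 KO and 10.4 and 4.47 CPM in WT, with Per3 KO 2 only just above WT 1. The difference was 0.87 ± 0.71 (SE) on the log2 scale, from 0.39 to 1.60 with 1 library left out. Med25, which meets acidic activators such as viral VP16, had 5.999 and 77 reads in Per3 KO and 42 and 27.98 in WT. Scaled, Per3 KO 2 at 1.06 CPM was close to WT 1 at 1.10 and WT 2 at 1.20 CPM, and Per3 KO 1 at 0.145 CPM was the one low library. The log2 fold change of -0.93 ± 1.82 (SE) was -0.14 without Per3 KO 1, and in RPKM Per3 KO 2 at 0.2768 lay above WT 1 at 0.2722 and WT 2 at 0.2145.

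The remaining 7 tail subunits overlapped between groups in CPM, with log2 fold changes from -0.80 for Med30 to 0.37 for Med24. Med23, which links insulin and Ras signals to transcription, had 5.31 and 7.48 CPM in Per3 KO and 4.57 and 7.22 CPM in WT. Both groups spanned much the same range, with a log2 fold change of 0.12 ± 0.76 (SE). Med15, which binds the sterol regulators SREBP, had 27.9 and 23.9 CPM in Per3 KO and 33.2 and 14.8 CPM in WT, and a log2 fold change of 0.11 ± 0.57 (SE). Med16 stood at -0.69, Med27 at -0.68 and Med28 at -0.32. Of these 7, Med27 kept its sign with any 1 library left out.

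In the kinase module no member had groups apart in CPM, and 6 of 7 log2 fold changes were positive. Of these 6, all but that of Cdk19 turned negative with some library left out. Cdk8, the kinase, had 9.44 and 11.2 CPM in Per3 KO and 10.7 and 4.43 CPM in WT, with a log2 fold change of 0.45 ± 0.72 (SE), or -0.04 without WT 2. Cdk19, its paralogue, had 3.86 and 7.70 CPM in Per3 KO and 4.02 and 3.61 CPM in WT, and a log2 fold change of 0.60 ± 0.86 (SE), or 0.02 without Per3 KO 2. WT 2 was the low library for both kinases, and Per3 KO 2 the high one. Ccnc, the cyclin that activates them, had 10.9 and 5.39 CPM in Per3 KO and 8.30 and 1.72 CPM in WT. Its log2 fold change of 0.70 ± 0.94 (SE) was -0.02 without WT 2.

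Med12, on the X chromosome, which activates the kinase through cyclin C, showed how far 1 library moved this module. It had 885 and 1748 reads in Per3 KO and 1024 and 79 in WT, or 21.4 and 24.0 CPM in Per3 KO and 26.7 and 3.40 CPM in WT. WT 2 alone was low. The log2 fold change was 0.59 ± 0.88 (SE), 2.74 without WT 1 and -0.23 without WT 2. Med12l, its paralogue, had 178 and 202.9 reads in Per3 KO and 12 and 122 in WT, so here WT 1 was the low library. In CPM these were 4.30 and 2.79 in Per3 KO and 0.313 and 5.25 in WT, with a log2 fold change of 0.35 ± 1.40 (SE) that was 3.49 without WT 2 and -0.56 without WT 1.

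Med13, which ties the kinase module to the core, had 67.2 and 74.6 CPM in Per3 KO and 79.2 and 66.1 CPM in WT, a log2 fold change of -0.04 ± 0.47 (SE). Med13l, its paralogue, had 59.9 and 56.5 CPM in Per3 KO and 37.4 and 70.0 CPM in WT, a log2 fold change of 0.12 ± 0.51 (SE). Both overlapped between groups in CPM, and the Per3 KO pair was tight in each. In RPKM Med13l had 3.633 and 3.614 in Per3 KO and 2.269 and 3.049 in WT, so that its groups were apart.

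Within each paralogue pair the share of RPKM was compared by library. Cdk8 made up 79.0% and 69.0% of the Cdk8 and Cdk19 sum in Per3 KO, and 80.3% and 65.3% in WT. Med13 made up 46.9% and 51.0% of its pair in Per3 KO, and 62.6% and 42.7% in WT. Cdk8 was therefore above Cdk19 in all 4 libraries, whereas Med13 and Med13l were near equal and changed order between libraries. Med12 made up 85.8% and 91.3% of its pair in Per3 KO, and 99.0% and 44.0% in WT. WT 2 was the library in which Med12l exceeded Med12.

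**Figure D4:**
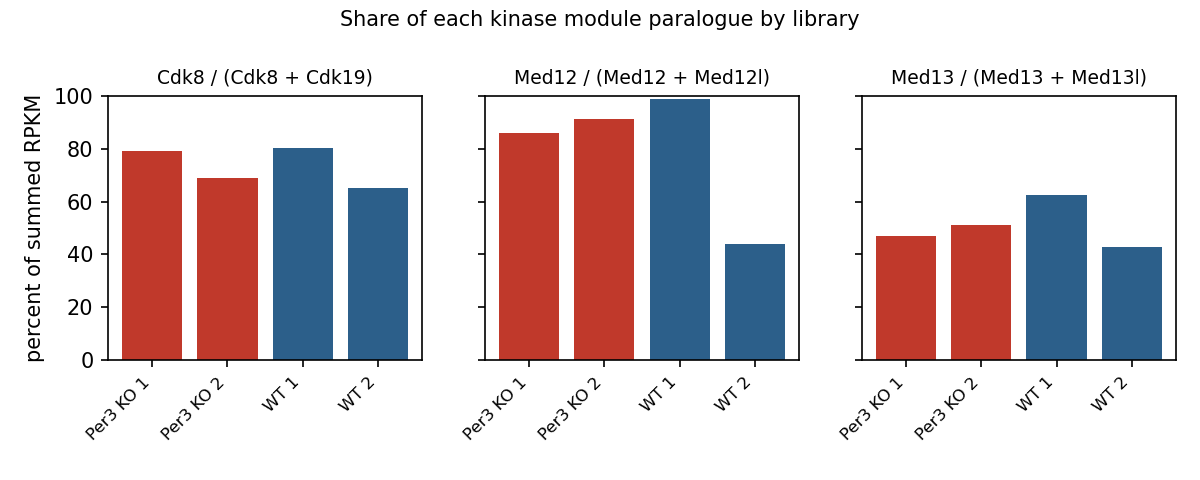
Share of summed RPKM taken by Cdk8, Med12 and Med13 in their paralogue pairs, as bars from 0 to 100% for each library, Per3 KO in red and WT in blue. The Per3 KO bars lie within the span of the WT bars in each pair, and the low Med12 bar is WT 2.

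The members were spread over 17 chromosomes, with 7 on chromosome 11 and Med12 and Med14 on the X chromosome. Listed mm9 coordinates overlapped another gene for 4 members, and whether the counts used strand is not given in the sources used here. Med12l overlapped 6 genes, among them 1676 bases of Igsf10, which had 3498 and 10040 reads in Per3 KO and 5314 and 1591 in WT, far above those of Med12l. Reads of Med12l are uncertain for that reason. Med9 overlapped Rasd1 by 124 bases, and Rasd1 had 495 and 1543 reads in Per3 KO and 178 and 53 in WT, the direction opposite to Med9. Med19 overlapped Zdhhc5 by 295 bases, and Med31 overlapped 4930563E22Rik, which had 0 reads in every library.

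Other parts of the transcription machinery were read from lists, and none of their members passed the edgeR test. Of 12 RNA polymerase II subunits, 11 had a negative log2 fold change (median -0.61), yet 0 had groups apart (26.0% of all genes did), and the median was 0.14 without WT 2. Polr2j, a small subunit, had 46.9 and 19.6 CPM in Per3 KO and 37.6 and 154 CPM in WT. Polr2k had 25.3 and 9.58 CPM in Per3 KO and 12.6 and 72.6 CPM in WT, and Polr2i had 36.9 and 14.8 CPM in Per3 KO and 22.9 and 88.3 CPM in WT. In each of these WT 2 was the high library, as it was for Med21, Med17 and Med11.

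Of 34 general transcription factor genes, 18 were positive and 16 negative (median 0.11, or -0.14 without WT 2). Both Per3 KO libraries were above WT for 6 and below for 2, where 14.6% and 11.5% of all genes were. Together 23.5% of the list had groups apart, next to 26.0% of all genes. Taf8, a TFIID subunit, had 24.4 and 42.1 CPM in Per3 KO and 22.8 and 12.8 CPM in WT. Ercc3 and Gtf2h3, both of TFIIH, had log2 fold changes of 0.84 ± 0.66 and 0.92 ± 0.73 (SE). Of 25 elongation factor genes tested, 13 were positive and 12 negative (median 0.05), with Supt4h1 of DSIF at -1.43 ± 0.72, Mepce at -1.02 ± 0.77 and the cyclin Ccnt2 at 0.63 ± 0.51 (SE). Without WT 2, Supt4h1 was at -0.04 and Mepce at 0.50.

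Cohesin and its loader join Mediator at enhancers, and their list also held Pds5a, Pds5b, Wapal and Ctcf. Of its 11 genes, 4 were positive (median -0.27, or 0.02 without WT 2). It was led by Smc3 at -0.55 ± 0.52, Wapal at 0.57 ± 0.54 and the loader subunit Mau2, listed as 9130404D08Rik, at -0.99 ± 0.95 (SE). The value of Mau2 ranged from -2.18 to 0.56 with 1 library left out. Integrator had 9 of 14 positive (median 0.14), with Ints8 at 1.31 ± 0.74, Ints5 at 0.73 ± 0.86 and Ints1 at -0.47 ± 0.53 (SE). Of 16 tested genes for activators known to bind Mediator, 12 were positive (median 0.33). Both Per3 KO libraries were above WT for 4 and below for 0, where 14.6% and 11.5% of all genes were. In either direction, the share of the list with groups apart was close to the 26.0% of all genes. Among the 4 above was Rxra, the partner of PPARγ, with 41.6 and 38.5 CPM in Per3 KO and 17.3 and 35.6 CPM in WT. Its log2 fold change was 0.60 ± 0.54 (SE). Atf6, a stress sensor, stood at 0.62 ± 0.48 (SE). None of these differences exceeded the spread between libraries by the test used.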

How the data were processed

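Per the file headers, each library's deposited table gives an estimated count of reads for every gene, which the authors did not normalise, and RPKM, which the authors scaled by transcript length and library total. The submitters' processing notes name STAR 2.4.0, Cufflinks, Cuffdiff 2.2.1 and mm9 and give no roles. For counting, annotation, strand use and reads that match several genes, the method is not given in the sources used here. Tables were joined by symbol and older symbols were matched through RefSeq synonyms. Counts were rounded, filtered with filterByExpr (minimum count 10, total 15), scaled by TMM factors (1.04 and 1.12 for Per3 KO, 1.03 and 0.832 for WT) and compared with edgeR 4.0.16 in R 4.3.3 (prior count 0.125, 1 term for genotype, two-sided, adjusted over all genes tested, threshold 0.05). CPM are rounded counts over scaled totals, and standard errors are the log2 fold change over the square root of F. DESeq2 1.42.0, limma 3.58.1 on log2(RPKM + 0.5), other scalings and filters, a replicate block and leaving out each library were alternatives. The steps were tested on simulated data, and a pass was required only for large changes at a low spread. The common biological coefficient of variation here was 0.742, above that spread, so the check does not show what could be detected. By rule, full values were given for members with groups apart in CPM, the kinase module and members under 10 reads in a library, other members given by library were added after their values were seen, and up to 3 genes per other list were named by p. Members and lists were chosen with earlier results of these data known. Reads are not independent molecules, so depth covers counting error only.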

Additional observations from a re-analysis of the deposited data

How the results depend on the processing

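The count of 0 members called held under every alternative run. Over all genes the count was 0 in the main test, 14 with DESeq2, 4 with no filter, 1 with limma on log2(RPKM + 0.5), 1 with a pseudocount of 0.1 or 1, and 1 to 4 with a library left out. Limma with no filter and DESeq2 size factors in edgeR gave 0. With the replicate number as a block 1 gene and 0 members were called. The numbers share only a label, and the differences between replicates 1 and 2 correlated across genes with r = -0.154 between the groups, so a crossed block was added after seeing the data, and it called 2 genes. On unfiltered RPKM, 8 members had both Per3 KO libraries above WT and 5 below (21.2% and 6.64% of the genes tested), against 4 and 6 in CPM. With a library left out, 7 to 12 members were above and 8 to 16 below, where 26.7% to 40.8% and 24.1% to 36% of all genes were, since fewer libraries part more easily. The members' median of -0.0034 was 0.14, 0.16 and 0.21 with limma on log2(RPKM + 0.5), on log2(RPKM + 0.1) and on unfiltered values. The median of all genes was 0.27, 0.31 and 0.08 in these settings. Without WT 1, WT 2, Per3 KO 1 and Per3 KO 2 in turn, the members' median was -0.19, 0.01, -0.02 and -0.12. That of all genes was 0.22, 0.09, -0.03 and -0.1 in the same order. Of 33 members, 19 changed sign with some library left out, 3 (Med8, Med13 and Med22) under another tool, scaling or filter, and 13 under neither. A pseudocount cannot change whether groups overlap, so that count was not run for it. Precision is lowest for members with few reads, such as Med18, with 10.92 reads in Per3 KO 2, and Med25, with 5.999 reads in Per3 KO 1.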
